A study of Mus musculus with 8 samples.

Results

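Nf1, the other Ras GTPase-activating proteins Rasa1, Rasa2 and Rasa3, and the Ras genes Nras and Hras1 were taken by their symbols from tables of 18860 genes measured by RNA sequencing in 8 mouse leukaemia samples. All 6 had a row and all 6 passed the filter on low values, among 14679 genes tested. The rule takes them by symbol and role and uses no measured value, but it was written with earlier results of these data known. The samples were leukaemic bone marrow cells of C57BL/6 mice taken when moribund, which carried Vav1-Cre, a recombinase active throughout the blood system, together with the short hairpin RNAs shNf1 and shMll3, directed at Nf1 and at the histone methyltransferase gene Mll3. In the 11B3-deleted group (genotype 11B3fl/p53fl, 4 libraries) 1 chromosome 11 carries a floxed 11B3 interval, which holds Trp53, and the other a Trp53 allele that is floxed. The p53-loss-only group has genotype p53fl/fl (4 libraries), where both Trp53 copies are the floxed allele. Both groups carry both hairpins and no library without them is among the 8, so the comparison shows how these genes differ between the genotypes and gives no measure of the knockdown of Nf1. The labels give no ages and speak of lines without saying whether different animals gave them, so p-values here cover only the spread over these 8 libraries, which may be technical.

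Ras proteins are small GTPases that signal while bound to GTP. GTPase-activating proteins (RasGAPs) speed up the hydrolysis of that GTP and so switch Ras off, whereas guanine nucleotide exchange factors (RasGEFs) load new GTP and switch it on. Neurofibromin, the product of Nf1, is a RasGAP whose loss is known from juvenile myelomonocytic leukaemia and from some acute myeloid leukaemias in humans, and activating NRAS mutations are frequent in human acute myeloid leukaemia.

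Values below are the deposited ones, that is, reads per gene scaled by a factor fixed within each library, plus 1. The recovered depth was 30502718 to 35719495 reads per library, and each member had between 455 reads (Nf1, 11B3-deleted replicate 4) and 9652 reads (Rasa3) in a library. The granulocyte precursor gene Mpo lay between 86050.7 and 414041.1 in the 11B3-deleted libraries and between 75329 and 195095 in the p53-loss-only libraries, and all 9 granulocyte markers were read in every library. In 11B3-deleted replicate 4 the summed value of these 9 markers was 733944.6, against 174903.4 to 463687.3 in the other libraries. Mpo, at 414041.1 there, made up much of that sum, and Ctsg, S100a8, Ngp and Ltf were highest in other libraries. By B cell and erythroid markers a pair of libraries stood apart. In 11B3-deleted replicate 3 the summed value of 6 B cell markers was 38926, against 197.4 to 2017.4 in the other libraries, and in 11B3-deleted replicate 1 the sum of 7 erythroid markers was 132607.9, against 586.6 to 28359 in the others. Trp53 was at 189.2 to 392.5 in the 11B3-deleted libraries and at 300.2 to 577.1 among the p53-loss-only libraries, so its reads do not separate the labels.

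None of the 6 genes differed between the genotypes past the threshold, which was a Benjamini-Hochberg adjusted p under 0.05 over all genes tested with limma (adjusted p = 0.996 for each). Among all 14679 genes 2 passed, or 0.0136%, both lower in the 11B3-deleted group. At an unadjusted p under 0.05 limma counted 0 of the 6 members and 3.56% of all genes (1.18% higher and 2.38% lower). On the recovered reads edgeR called none of the 6 and 0.00681% of all genes, DESeq2 none of the 6 and 0.395% of all genes, and limma voom none of either. The groups did not overlap in 1 member, Rasa2, and in 2.15% of all genes (0.913% with 11B3-deleted higher). What the data do give is the size of difference that each gene's interval still allows, the order of the levels and the library in which each gene ran high or low.

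Among the RasGAPs, Nf1, the hairpin target, was at 718.6, 516.5, 718.3 and 404.8 across 11B3-deleted replicates 1 to 4 and at 642.8, 820.3, 550.4 and 596.3 across p53-loss-only replicates 1 to 4. The lowest library was 11B3-deleted replicate 4 and the highest p53-loss-only replicate 2, and the groups overlapped. The means were 589.5 ± 155.6 in the 11B3-deleted libraries and 652.4 ± 118.1 among the p53-loss-only libraries (SD, n = 4 each), with a log2 difference of -0.17 (SE 0.25, 95% interval -0.74 to 0.4). Without 11B3-deleted replicate 4 the log2 difference was 0, and it was -0.28 without 11B3-deleted replicate 1 and likewise without replicate 3, and -0.05 without p53-loss-only replicate 2. Counting error was not the limit for Nf1, since the library with the fewest reads had a counting error of 4.69% while the coefficient of variation between libraries was 26.4% in the 11B3-deleted libraries and 18.1% among the p53-loss-only libraries.

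Rasa1 encodes p120 RasGAP, which docks on activated receptor tyrosine kinases. It was at 2559.9, 2935.6, 1949.2 and 2476.3 across 11B3-deleted replicates 1 to 4, against 2417.9, 1900, 2418.8 and 1857.1 across p53-loss-only replicates 1 to 4. The groups overlapped, with 11B3-deleted replicate 3 close to the lower pair of p53-loss-only libraries. The means were 2480.3 ± 406.5 and 2148.5 ± 312.1 in the 11B3-deleted and p53-loss-only groups (SD, n = 4 each), with a log2 difference of 0.2 (SE 0.18, 95% interval -0.2 to 0.61). With single libraries left out, the log2 difference of Rasa1 ran from 0.12 (without 11B3-deleted replicate 2) to 0.31 (without 11B3-deleted replicate 3, the library with the B cell markers), and with limma voom it was 0.07.

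Rasa2, a RasGAP of the GAP1 family, was the member whose libraries separated by genotype. It was at 1846.2, 1984.3, 1794.2 and 1696.2 across 11B3-deleted replicates 1 to 4 and at 1182.7, 1612, 1563.5 and 1503.6 across p53-loss-only replicates 1 to 4. Every 11B3-deleted library lay above every p53-loss-only library, with a gap between 1696.2 and 1612 at the boundary, and the lowest of the 8 was p53-loss-only replicate 1. The means were 1830.2 ± 120.1 against 1465.5 ± 193.6 for the 11B3-deleted and p53-loss-only groups (SD, n = 4 each), with a log2 difference of 0.33 (SE 0.16, 95% interval -0.02 to 0.68, limma unadjusted p = 0.0648). The difference did not pass the test, and it was 0.23 without p53-loss-only replicate 1. DESeq2 on the recovered reads gave Rasa2 an unadjusted p of 0.0492 and an adjusted p of 0.856.

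Rasa3, the GAP1 family member that also acts on Rap1, was the most variable of the 6. It was at 4795.6, 7088.4, 3636.7 and 7789.1 across 11B3-deleted replicates 1 to 4 and at 9373.3, 4762.4, 9109.8 and 3175.5 across p53-loss-only replicates 1 to 4. High and low libraries occurred in both groups, and the p53-loss-only group held both the highest pair and the lowest library. The means were 5827.5 ± 1941 in the 11B3-deleted libraries and 6605.2 ± 3114.2 among the p53-loss-only libraries (SD, n = 4 each), with a log2 difference of -0.11 (SE 0.39, 95% interval -0.99 to 0.77). Its sign turned to 0.1 or 0.11 without 11B3-deleted replicate 3 or without replicate 1 or 3 of the p53-loss-only group, and it was -0.41 without p53-loss-only replicate 4 and -0.44 with limma voom.

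The 7 monocyte and macrophage markers did not all follow 1 pattern over the libraries. Their summed value was 16682.2, 22048.9, 12330.1 and 27478.1 across 11B3-deleted replicates 1 to 4 and 38284.3, 26423.4, 51029.8 and 21094.6 across p53-loss-only replicates 1 to 4. Csf1r, the receptor of the macrophage growth factor, made up much of that sum and was at 10982.5, 13666.8, 7114.5 and 19231.2 against 21427.5, 13795.2, 31266 and 10359.3 in the same order. Cd68, a lysosomal protein of macrophages, was at 826.8 to 1913.3 in the 11B3-deleted libraries and at 3414 to 8889.4 with p53 loss only, without overlap. Cd68 is also a gene of the 11B3 interval, and the summed value includes it. For Cd68 a lost gene copy and fewer such cells therefore cannot be told apart. Mrc1, the mannose receptor gene, had its lowest values, 68 and 74.5, in p53-loss-only replicates 1 and 3, the libraries with the most Rasa3. Cx3cr1, a chemokine receptor gene, was at 82.8 to 1236.5 with 11B3 deleted and at 2281 to 3890.4 with p53 loss only. Like those of Cd68, its groups did not overlap, as in 2.15% of all genes tested. Csf1r, Emr1, Ly86, Mrc1 and Cd14 had overlapping groups. Cx3cr1 was at 82.8 in 11B3-deleted replicate 2, where Rasa3 was at 7088.4, and at 3280.9 in p53-loss-only replicate 4, where Rasa3 was lowest. All 7 markers were read in every library. Ly86 (1930.6 to 4206.1) and Cd14 (296.6 to 2003.2) had their highest pair in p53-loss-only replicates 1 and 3. So did Csf1r, Cd68 and Rasa3. Emr1 was highest in p53-loss-only replicate 1 (1957.6) but at 964.8 in p53-loss-only replicate 3. The values displayed for single markers were picked after they were seen. The part of such cells in the level of Rasa3 was not tested, and in bulk RNA fewer cells of a type cannot be told apart from less RNA per cell.

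**Figure D1:**
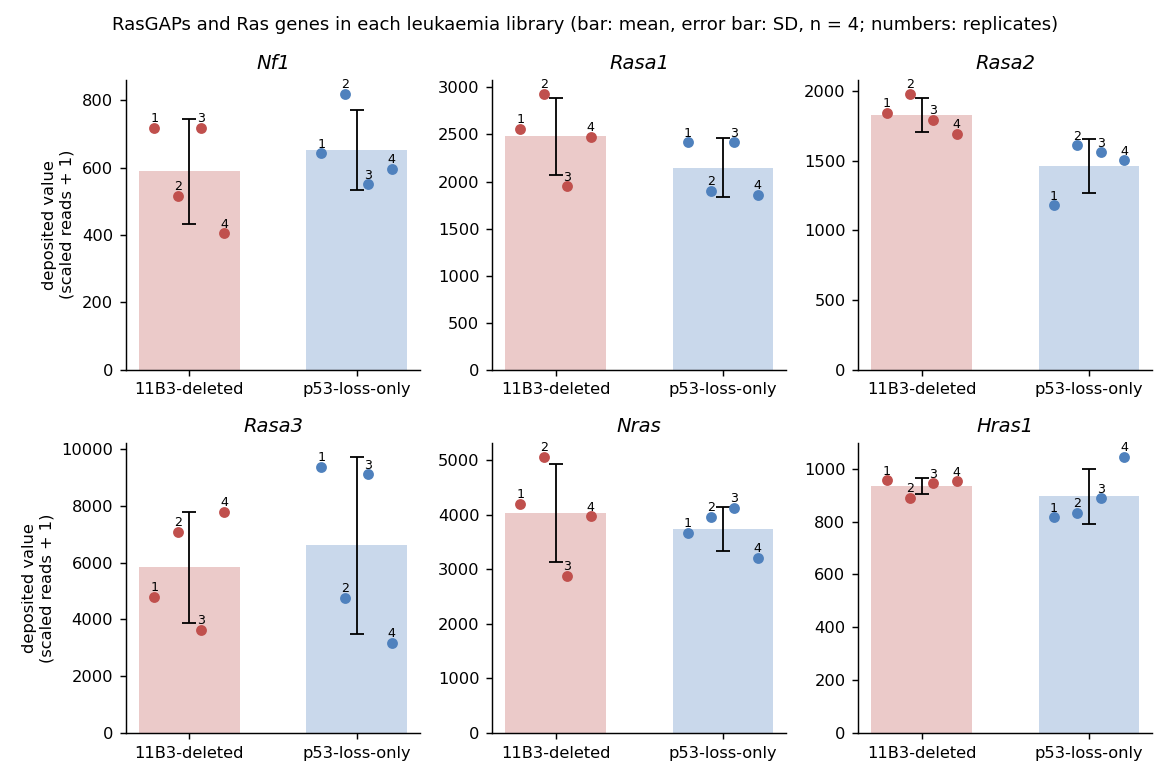
Deposited value (scaled reads plus 1, linear axis from 0) of each member in the 11B3-deleted and p53-loss-only libraries, with points labelled by replicate number, bars for the mean and error bars for the SD (n = 4 each). Rasa2 is the gene whose groups do not overlap, at 1696.2 to 1984.3 against 1182.7 to 1612, and Rasa3 spreads widest, from 3636.7 to 7789.1 against 3175.5 to 9373.3.

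Neither Ras gene passed the test. Nras, which encodes one of the classical Ras proteins, was at 4206.9, 5066.3, 2883.6 and 3979.8 across 11B3-deleted replicates 1 to 4 and at 3671.4, 3971.6, 4131.6 and 3212.7 across p53-loss-only replicates 1 to 4. The 11B3-deleted group held both the highest and the lowest library, and the p53-loss-only libraries lay between them. The means were 4034.2 ± 898.5 in the 11B3-deleted libraries and 3746.8 ± 403.9 among the p53-loss-only libraries (SD, n = 4 each), with a log2 difference of 0.08 (SE 0.19, 95% interval -0.35 to 0.52). Its lowest library was 11B3-deleted replicate 3, without which the log2 difference was 0.24. Without 11B3-deleted replicate 2, its highest library, the log2 difference was -0.03.

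Hras1 (current symbol Hras), the other Ras gene of the set, was the steadiest member. It was at 956.8, 889.9, 944.1 and 951.6 across 11B3-deleted replicates 1 to 4 and at 815.7, 832.2, 888.1 and 1044.6 across p53-loss-only replicates 1 to 4. The groups overlapped because p53-loss-only replicate 4 was the highest of the 8. The means were 935.6 ± 30.9 against 895.1 ± 104.3 in the 11B3-deleted and p53-loss-only groups (SD, n = 4 each), with a log2 difference of 0.07 (SE 0.16, 95% interval -0.29 to 0.43). With single libraries left out the log2 difference of Hras1 ran from 0.03 to 0.15. In the 11B3-deleted group the coefficient of variation was 3.3%, about the counting error of 3.48% in the library with the fewest reads, against 11.7% among the p53-loss-only libraries.

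Nras and Hras1 are close relatives, so the sequence that the genes share decides whether reads can be told apart. Their coding sequences are both 570 bases long and match at 428 positions, or 75.1%. The longest run that is identical in both is 23 bases, in the transcripts of GENCODE release M21 (GRCm38). Among the 14 other pairs of members the longest identical run of coding bases was 14 bases, in Nf1 with Rasa1 and in Rasa2 with Rasa3. The sources used here do not say how reads that match several genes were counted.

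Within a genotype the members did not vary alike. The residual SD of the log2 value was 0.12 for Hras1, lower than in all but 1.03% of the tested genes, and 0.16 for Rasa2, 0.23 for Rasa1 and 0.26 for Nras. For Nf1 it was 0.33, at the 33.9th percentile of the tested genes, and for Rasa3 0.65, at the 69.5th percentile. The ratio of the highest to the lowest of the 8 libraries was 1.28 for Hras1, 1.58 for Rasa1, 1.68 for Rasa2, 1.76 for Nras, 2.03 for Nf1 and 2.95 for Rasa3. In 11B3-deleted replicate 4 Nf1 was 0.59 below its own mean over the 8 libraries on the log2 scale (-0.59) and Rasa3 0.43 above its mean, and in 11B3-deleted replicate 3 Nf1 was at 0.24 and Rasa3 at -0.67. In p53-loss-only replicate 1 Rasa3 was at 0.7 while Rasa2 was at -0.46. Rasa1 and Nras were both highest in 11B3-deleted replicate 2, at 0.36 and 0.4, and both below their means in 11B3-deleted replicate 3, at -0.23 and -0.41, and in p53-loss-only replicate 4, at -0.3 and -0.26.

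**Figure D2:**
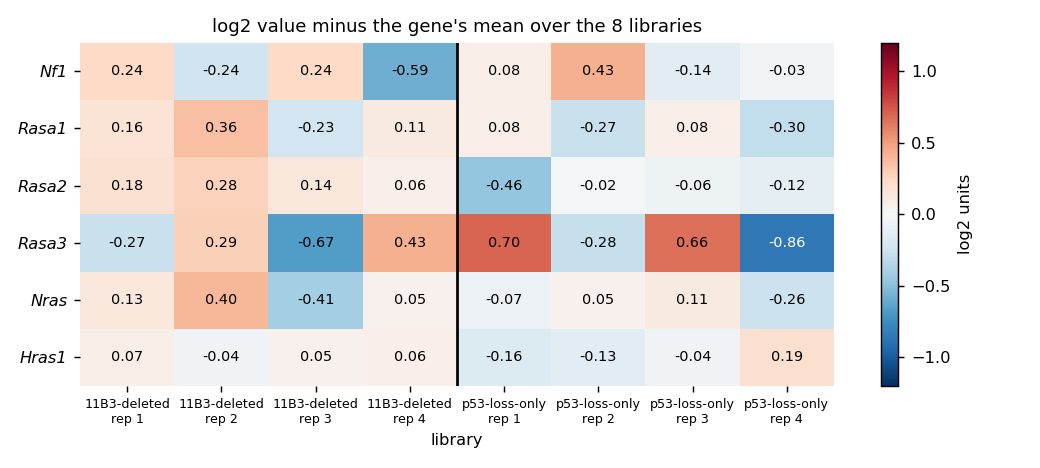
Log2 value of each member (rows) in each library (columns, 11B3-deleted replicates left of the line and p53-loss-only replicates right of it) minus the mean of that gene over the 8 libraries, in log2 units. Rasa3 runs from -0.86 to 0.7 across libraries of both genotypes, and Hras1 from -0.16 to 0.19.

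Levels of different genes were compared per kilobase of annotated exon, as the deposited value minus 1 divided by the length of the union of a gene's exons in GENCODE release M21. Rasa3 stood highest, at 1143.6 ± 381 scaled reads per kilobase in the 11B3-deleted libraries and 1296.2 ± 611.2 among the p53-loss-only libraries (SD, n = 4 each). Nras came next, at 756.6 ± 168.5 against 702.7 ± 75.8 per kilobase, and then Rasa1, at 338.7 ± 55.5 against 293.4 ± 42.6 per kilobase. Hras1 followed at 250.4 ± 8.3 against 239.5 ± 28 per kilobase, then Rasa2 at 115.4 ± 7.6 against 92.4 ± 12.2 per kilobase. Nf1 was lowest, at 37.1 ± 9.8 per kilobase in the 11B3-deleted libraries and 41.1 ± 7.4 per kilobase among the p53-loss-only libraries. Every library carries the hairpin against Nf1, so its part in this rank and in the share of Nf1 below cannot be told. The order Rasa3, Nras, Rasa1, Hras1, Rasa2, Nf1 was that of the means in both genotypes.

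Within each of the 8 libraries the neighbours in that order kept it, except Rasa1 and Hras1, which changed places in p53-loss-only replicate 4. Across libraries the ranges of Rasa3 (623.1 to 1839.5 per kilobase) and Nras (540.7 to 950.2) overlapped, as did those of Rasa1 (253.6 to 400.9) and Hras1 (218.2 to 279.6), although within libraries Rasa3 was above Nras in 8 of 8 and Rasa1 above Hras1 in 7 of 8. Rasa2 (74.5 to 125.1 per kilobase) and Nf1 (25.5 to 51.7 per kilobase) did not overlap with their neighbours. With the longest annotated transcript as the length the order was the same, but Hras1 and Rasa2 then overlapped and Rasa1 and Hras1 no longer did. Nf1 made up 2.51% ± 1.26 of the summed per-kilobase level of the 4 RasGAPs in the 11B3-deleted libraries and 2.72% ± 1.23 among the p53-loss-only libraries (SD, n = 4 each), while Rasa3 made up 68.8% ± 6.3 and 72.8% ± 8.86. Per kilobase Nras was 3.04 ± 0.759 times Hras1 in the 11B3-deleted libraries and 2.98 ± 0.553 times among the p53-loss-only libraries (SD, n = 4 each).

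**Figure D3:**
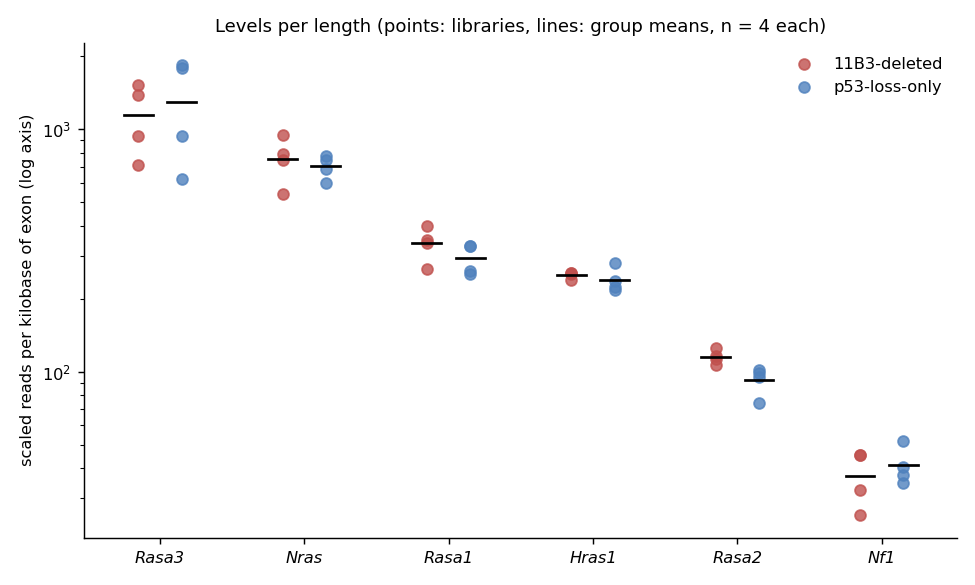
Scaled reads per kilobase of exon (log axis) for each member, ordered by the mean over the 8 libraries, with 1 point per 11B3-deleted library on the left and per p53-loss-only library on the right of each gene and lines for the group means (n = 4 each). The levels run from 1219.9 per kilobase for Rasa3 down to 39.1 per kilobase for Nf1, and the order of the group means is the same in both genotypes. Nf1 is the target of the hairpin shNf1, which every library carries.

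None of the 6 genes lies in the 11B3 interval. Nf1 is on the same chromosome, 11, with 149 tested genes between Alox12 at the end of the interval and Nf1 in annotation order, and those 149 had a median log2 difference of 0.04. The other members are on chromosomes 13 (Rasa1), 9 (Rasa2), 8 (Rasa3), 3 (Nras) and 7 (Hras1). Omg, Evi2a and Evi2b lie within Nf1 on the opposite strand, and in GENCODE none of them shares an exon base with it. Of the other members Rasa1 shares 12 exon bases with Ccnh on the opposite strand.

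Evi2a, which encodes a membrane protein of blood cells, was at 919.7, 1144.9, 518.6 and 1748.6 across 11B3-deleted replicates 1 to 4, against 2065.4, 1187.2, 1895.8 and 887 across p53-loss-only replicates 1 to 4. It was highest where Rasa3 was high, in p53-loss-only replicates 1 and 3 and 11B3-deleted replicate 4, the library with the least Nf1 (log2 difference of Evi2a -0.53, SE 0.4). The row that the authors name Evi2b was between 7838.8 and 14190.9 in the 11B3-deleted libraries and between 10579.7 and 17072.7 among the p53-loss-only libraries (log2 difference -0.22, SE 0.23). Its identifier belongs in GENCODE to Evi2, a gene model that shares 442 exon bases with Evi2a, so these 2 rows can split reads between them. Omg, which encodes oligodendrocyte myelin glycoprotein, was lower than the others, at 23.3 to 111.8 against 45 to 111.7 in the 11B3-deleted and p53-loss-only groups.

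Of the tested genes beside Nf1, Wsb1 on one side was at 4757.6 to 9058.3 in the 11B3-deleted libraries and 6457.5 to 8772.1 among the p53-loss-only libraries (log2 difference -0.28, SE 0.22). Rab11fip4 on the other side was at 532.1 to 1777.7 against 397.9 to 2132.9 (log2 difference -0.06, SE 0.59). With single libraries left out the log2 differences ran from -0.8 to -0.22 for Evi2a (highest without 11B3-deleted replicate 3), from -0.34 to -0.06 for Evi2b and from -0.45 to -0.14 for Wsb1 (highest without 11B3-deleted replicate 1 for both), and those of Omg and Rab11fip4 changed sign. All 5 genes named here at the locus had overlapping groups and none passed the test (limma adjusted p = 0.996 to 0.998).

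The rest of the Ras pathway was described through 8 lists with 80 genes, all with a row and 77 of them tested. None of the 77 passed with limma in either direction, nor with edgeR, DESeq2 or limma voom, against 0.0136% of all genes with limma. At an unadjusted p under 0.05, 1 gene was higher and 3 were lower, or 4 of 77, against 3.56% of all genes tested. The groups did not overlap in 2 of the 77 genes, Sos1 and Lypla2, against 2.15% of all genes. The median log2 difference over the 77 was -0.09, with 28 higher and 49 lower means, and over all genes tested it was 0.01. Of 43 genes named with a fit (members, locus and lists), 36 moved by over 1.5 times, to 0 or to the other sign when 1 library was left out. The other 7 were Rasa2, Rasa4, Rasal3, Sos1, Rras, Mapk3 and Lypla2. A log2 difference near 0 passes this limit with a small shift, as that of Hras1 did (0.07, with 0.03 to 0.15). The count is therefore no measure of how many libraries a value rested on.

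The 6 further RasGAPs were tested, with a median log2 difference of -0.39, 2 higher and 4 lower means. Rasa4, a RasGAP that calcium brings to the membrane, was at 1747.6, 2943.1, 3448.7 and 2191.4 across 11B3-deleted replicates 1 to 4 and at 5220.2, 2501, 5916.7 and 3656.8 across p53-loss-only replicates 1 to 4. The groups overlapped, with p53-loss-only replicates 1 and 3 highest, as for Rasa3 (log2 difference -0.72, SE 0.31; the 95% interval ran from -1.42 to -0.01 and the limma adjusted p was 0.996). Rasal3, a RasGAP found mainly in blood cells, was at 1898.3 ± 549.5 against 2755.1 ± 832.3 in the 11B3-deleted and p53-loss-only groups (SD, n = 4 each; log2 difference -0.53, SE 0.27). Rasal2 had a log2 difference of 0.4 (SE 0.3) and Dab2ip of -0.89 (SE 0.8), with overlapping groups in each, and with single libraries left out they ran from 0.22 to 0.61 and from -1.49 to -0.36.

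The 8 RasGEFs had a median log2 difference of -0.47, 2 higher and 6 lower means. Sos1, the exchange factor that Grb2 brings to receptors, was at 2532.6, 1985.4, 1511.1 and 1589.7 across 11B3-deleted replicates 1 to 4 and at 1298.3, 1400.1, 1289.4 and 1357.7 across p53-loss-only replicates 1 to 4. Every 11B3-deleted library lay above every p53-loss-only library (log2 difference 0.48, SE 0.19, 95% interval 0.05 to 0.91), but the difference did not pass over all genes (limma adjusted p = 0.996). Rasgrp1, an exchange factor that answers to diacylglycerol, ranged over 24.3 to 124.4 with 11B3 deleted, against 5106.6, 166.1, 113.9 and 57.4 across p53-loss-only replicates 1 to 4. Its log2 difference of -2.16 (SE 1.27) rested on p53-loss-only replicate 1 and was -0.75 without it. Rasgrf2 (-1.09, SE 0.69) and Rasgrp3, another diacylglycerol-responsive factor (-0.77, SE 0.56), also had lower means without passing. Rasgrp3 was at 1659 in p53-loss-only replicate 4 and at 237 to 439.5 in the rest of its group, and its log2 difference was -0.2 without that library, while that of Rasgrf2 was -0.55 without 11B3-deleted replicate 3.

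The adaptors and upstream factors had 7 higher and 3 lower means of 10 tested (median log2 difference 0.13). Those with the smallest p were the adaptor Crkl (0.21, SE 0.16), the ubiquitin ligase Cbl (0.17, SE 0.16), the docking protein Gab1 (0.89, SE 0.92) and the adaptor Shc1 (-0.13, SE 0.14), all with overlapping groups. Gab1 was at 1045.6 in 11B3-deleted replicate 1, the library with the erythroid markers, and at 55.9 to 222 in the rest of its group, and its log2 difference was 0.09 without that library. Of 12 Ras-related GTPases 3 had a higher and 9 a lower mean (median log2 difference -0.1). Rras, a relative of Ras known from integrin signalling, was at 204.1, 477.7, 208.4 and 235.3 across 11B3-deleted replicates 1 to 4 and at 434.1, 433.1, 425.4 and 440.8 across p53-loss-only replicates 1 to 4. The p53-loss-only libraries were almost level, and 11B3-deleted replicate 2 lay above them while the other 11B3-deleted libraries were lower (log2 difference -0.72, SE 0.3, limma adjusted p = 0.996). Rras2 (0.94, SE 0.7), Rit1 (-0.23, SE 0.25) and Ralb (-0.25, SE 0.27) had overlapping groups, and without 11B3-deleted replicate 3 they were at 0.36, -0.04 and -0.12.

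Downstream, 10 genes of the Raf-MEK-ERK cascade and its scaffolds had 4 higher and 6 lower means (median log2 difference -0.13). Mapk3, which encodes ERK1, was at 3222.8, 3989.1, 3655.2 and 5241 across 11B3-deleted replicates 1 to 4 and at 4987.2, 4704.6, 5295 and 6377.6 across p53-loss-only replicates 1 to 4, overlapping only through 11B3-deleted replicate 4 (log2 difference -0.42, SE 0.18). The difference of Mapk3 did not pass (limma adjusted p = 0.996). Map2k1, which encodes MEK1, had a log2 difference of -0.18 (SE 0.14) and the MEK scaffold gene Lamtor3 of -0.17 (SE 0.16).

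Of 8 other Ras effectors, 2 had a higher and 6 a lower mean (median log2 difference -0.09), among them the Ral exchange factors Rgl1 (0.88, SE 0.6) and Ralgds (-0.76, SE 0.64), the Rab5 exchange factor Rin1 (-0.54, SE 0.67) and Rassf1 (-0.13, SE 0.22). With single libraries left out Rgl1 ran from 0.34 to 1.14, Ralgds from -1.21 to -0.31, Rin1 from -1.07 to -0.15 and Rassf1 from -0.25 to -0.01. The 10 genes for lipid processing and trafficking of Ras had the narrowest spread of the lists, from -0.27 to 0.19 (median log2 difference -0.03). Lypla2, a thioesterase that removes palmitate from proteins, was at 2394.7 to 2861.3 in the 11B3-deleted libraries and at 2958.3 to 3787 among the p53-loss-only libraries, without overlap (log2 difference -0.27, SE 0.14, limma adjusted p = 0.996). Fnta, the alpha subunit of farnesyltransferase, had a log2 difference of 0.19 (SE 0.17), the carboxyl methyltransferase Icmt of -0.2 (SE 0.19) and the palmitoyltransferase Zdhhc9 of -0.21 (SE 0.22).

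The last list holds the Spred proteins, which bring neurofibromin to the membrane, with feedback and target genes of the ERK pathway. Of its 13 tested genes 5 had a higher and 8 a lower mean (median log2 difference -0.36). Ccnd1, the cyclin D1 gene, was at 1888.2, 1221.3, 2066.5 and 1259.5 across 11B3-deleted replicates 1 to 4 and at 1756.6, 1730.3, 5129.4 and 3541.8 across p53-loss-only replicates 1 to 4. The groups overlapped, with p53-loss-only replicates 3 and 4 highest (log2 difference -0.8, SE 0.37, limma adjusted p = 0.996). Dusp6, an ERK phosphatase, was at 1275.1 to 3761.5 against 2872 to 7764.4 (log2 difference -0.5, SE 0.43), Phlda1 had a log2 difference of -1.4 (SE 0.82) and Spred3 of -0.5 (SE 0.53). Dusp6 was at -0.12 and Spred3 at -0.2 without 11B3-deleted replicate 1, and Phlda1 was at -0.72 without p53-loss-only replicate 2.

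**Figure D4:**
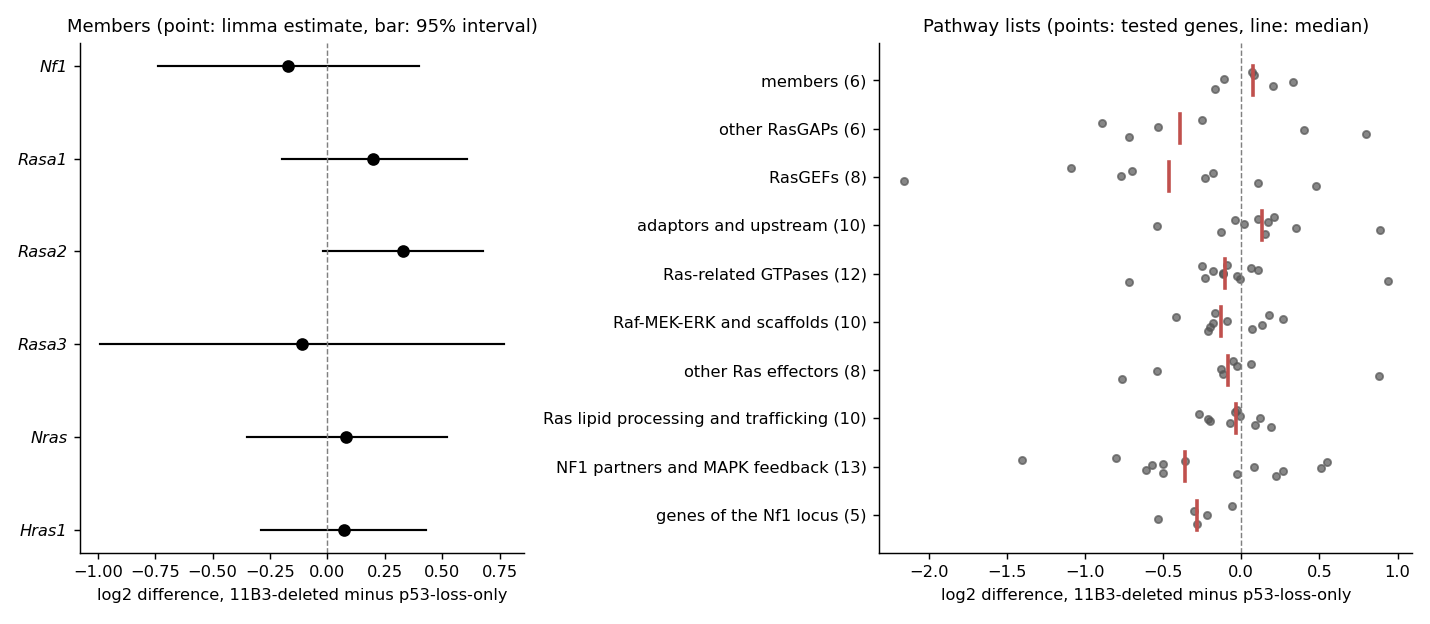
Left, log2 difference of each member, 11B3-deleted minus p53-loss-only, as the limma estimate (point) with its 95% interval (bar). Right, the log2 difference of each tested gene (point) of the members and the pathway lists, and of the genes named at the Nf1 locus. The number of genes is in brackets and a line marks the median. Each member's interval includes 0, the narrowest being that of Rasa2 (-0.02 to 0.68) and the widest that of Rasa3 (-0.99 to 0.77), and list medians lie between -0.47 and 0.13.

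Genes whose pattern over the 8 libraries was most like that of a member were found by the SD over libraries of the log2 ratio of the gene to the member, among 10789 genes with a mean value of at least 50. Nf1 was followed most closely by Mink1 (SD of the log2 ratio 0.138) and Snapc1 (0.161), where the SD of Nf1 itself was 0.323 and the median over the genes compared was 0.504. Rasa3 was followed by Calhm2 (0.115) and Wdr81 (0.144), against an SD of 0.602 for Rasa3 itself and a median of 0.726. Calhm2 was at 554.6, 838.2, 510.8 and 1071.4 across 11B3-deleted replicates 1 to 4 and at 1170.1, 623.9, 1031.7 and 387.6 across p53-loss-only replicates 1 to 4, high in the same libraries as Rasa3. For Rasa1 the closest genes were Cdkn2aip (0.062) and Dennd5a (0.064), for Rasa2 Psme4 (0.105) and Acadl (0.107), and for Nras Vps4b and Zc3h13 (0.09 each). For Hras1 they were Bod1l (0.066) and Bclaf1 (0.067), beside an SD of 0.117 for Hras1 itself.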

How the data were processed

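Total RNA of 8 leukaemia samples, 4 per genotype, was sequenced, and groups were taken from the titles. STAR, HTSeq, DESeq and the build mm9 are named in the submitters' processing notes without roles or versions. In the deposited signal values, 1 had been added to a multiple of a step that is constant within a library, and dividing by that step gave whole reads for 100% of values (tolerance 0.02), on which edgeR called 1 gene. Because the deposited values are not counts, limma with a mean-variance trend was run on their log2 (the added 1 is the pseudocount, which understates the fold of low genes), with group as the only term. The test took genes whose value reached 10 in 4 or more libraries.

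The sources used here do not give strand use in counting. Gene lengths, order and chromosomes came from GENCODE release M21 (GRCm38), matched by identifier for 17888 of 18860 genes, and no coordinates are given since the build differs. Alternatives were limma voom with weights per sample, count tests of the recovered reads with DESeq2 and with edgeR, other filters, TMM rescaling, an added constant of 5, each library left out and a replicate block. Versions were DESeq2 1.42.0, edgeR 4.0.16, limma 3.58.1 and R 4.3.3. The procedures were tested on simulated data. All library pairs differed by more than sampling noise (lowest chi-square over its degrees of freedom 94.4).

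Members and lists were chosen with earlier results of these data known. Genes named are the 6 members, Evi2a, Evi2b and Omg out of 4 tested genes inside Nf1, and the nearest tested gene on each side of Nf1. They also include up to 4 genes with the smallest p per list, and the 2 genes most like each member, leaving out predicted and clone-named genes. Other genes named, such as Mpo, Csf1r and Trp53, are markers or label checks. A gene that this rule names and a stretch of sequence are not reported here.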

Additional observations from a re-analysis of the deposited data

Results flagged for a closer look

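Within-group outliers were looked for by the gap of the highest or lowest library to its nearest neighbour, as a share of the range of the log2 values, in 86 groups of 4 libraries (43 genes). The rule flags about 1 in 20 groups by chance, and 5 were found, none of them in a member or a gene of the Nf1 locus. In the 11B3-deleted group Rras was at 477.7 in replicate 2, against 204.1 to 235.3 in the others. Rgl1 was at 332.5 in 11B3-deleted replicate 3, the library with the B cell markers, against 67.6 to 84. Dusp6 was at 1275.1 in 11B3-deleted replicate 1, the library with the erythroid markers, against 3390.8 to 3761.5. In the p53-loss-only group Lypla2 was at 3787 in replicate 1, against 2958.3 to 3047.7, and Spred3 was at 129.9 in replicate 4, against 298.2 to 323.4. On the printed scale instead of log2, 8 groups passed: the same 5, with Rasgrp1 at 5106.6 in p53-loss-only replicate 1 (57.4 to 166.1 in the others), Rasgrp3 at 1659 in p53-loss-only replicate 4 (237 to 439.5) and Gab1 at 1045.6 in 11B3-deleted replicate 1 (55.9 to 222).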

How the results depend on the processing

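Each of 43 genes was refitted under up to 16 alternatives, and 39 did not turn sign in any of them, counting Nf1, which was at 0 without 11B3-deleted replicate 4. No call was made in any of these fits, and Rasgrp1 had no p-value with DESeq2. No member passed in any alternative (smallest adjusted p = 0.627). The sign of Rasa3 turned without 11B3-deleted replicate 3, replicate 1 of p53-loss-only or its replicate 3 (log2 difference 0.1, 0.11 and 0.1; range over single libraries left out -0.41 to 0.11). That of Nras turned with limma voom (-0.02) and without 11B3-deleted replicate 2 (-0.03; range -0.03 to 0.24). That of Omg turned without 11B3-deleted replicate 3 (0.12; range -0.63 to 0.12), and that of Rab11fip4 with limma voom (0.39) and without 11B3-deleted replicate 1 (0.15) or 4 (0.11) or p53-loss-only replicate 2 (0.15) or 4 (0.37; range -0.44 to 0.37). The cause was not tested.

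Over the whole table the count of called genes was 2, and it was 1 with a value of at least 50 required, 1 with edgeR, 58 with DESeq2, 0 with limma voom, 1 with a constant of 5 and 0 to 1 with a library left out. The replicate block gave 0 called genes and changed no call of a member. Libraries with the same number did not deviate together (correlations of deviations from the group means of -0.03, -0.22, -0.41 and -0.24 for numbers 1 to 4), so the numbers were not taken as pairs. With the longest transcript as length, the level per kilobase over the 8 libraries was 52 for Nf1, 507 for Rasa1, 250.3 for Rasa2, 870.1 for Nras and 323.3 for Hras1.

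The spread between libraries exceeded the counting error for every member in both groups, except Hras1 in the 11B3-deleted group (3.3% against 3.48%).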
